A study of Mus musculus with 6 samples.

Results

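The genes described here are 35 genes of the endoplasmic reticulum (ER), the compartment where secreted and membrane proteins are threaded through a membrane channel, folded, and sent for destruction when folding fails. They were taken by name from the table of 55487 genes, all 35 were found there, and they fall by role into 4 stress sensors with their transcription factor, 11 chaperones and cofactors, 5 enzymes of disulfide chemistry, 7 translocation subunits and 8 degradation factors. RNA was sequenced from 6 libraries of 4T-1, a mouse mammary carcinoma cell line that received no treatment. The libraries were 3 from wild-type cells and 3 from cells labelled Lyplal1 knockout, and Lyplal1 encodes a lysophospholipase-like protein that the series title ties to the depalmitoylation of cGAS, a sensor of DNA. The sample descriptions call the wild-type libraries 4T1_NC and the knockout libraries 4T1_sg2. The labels do not spell out how the knockout was made or whether the knockout cells are 1 clone or a mixture. They also do not say whether libraries of a group came from separate cultures, so p-values measure only the spread between these libraries.

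When unfolded proteins build up in the ER, the membrane sensors IRE1 (gene Ern1), ATF6 and PERK start the unfolded protein response. IRE1 splices the Xbp1 message so that it encodes an active transcription factor, and ATF6 travels to the Golgi, where proteases release its active part. Both factors raise the messages of chaperones, folding enzymes and the machinery that pulls misfolded proteins back to the cytosol for the proteasome. The same programmes serve secretory epithelia such as the mammary gland, and counts per gene cannot show whether Xbp1 was spliced or ATF6 cleaved.

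Total counts ran from 16731209 to 17108975 per library. Lyplal1 (ENSMUSG00000039246) gave 76, 73 and 68 counts in wild type and, likewise in replicate order, 54, 48 and 58 in knockout. Its log2 fold change of -0.28 ± 0.15 (SE) was not called (adjusted p = 0.0886 by edgeR), although it was with upper-quartile factors (-0.41, adjusted p = 0.014) and on log2(TPM + 1) (-0.44, limma-trend adjusted p = 7.97e-04). The RNA therefore does not check the knockout label. The epithelial markers Krt8, Krt18, Krt19, Epcam, Cdh1 and Cldn7 were present in every library and all 6 fell in knockout (edgeR), where their summed TPM (transcripts scaled for gene length and library total) was 2616 to 2713, against 6651 to 6820 in wild type. RNA of lung epithelium was present in the knockout libraries: Sftpc had 109, 142 and 691 counts in knockout replicates 1 to 3 against 1, 0 and 0 in wild type, and 3 of 3 lung markers were higher in every knockout library. Summed lung marker TPM was 0.503 to 1.23 in wild type and 116, 150 and 676 in knockout replicates 1 to 3. Leukocyte markers summed to 0.0910 to 0.442 TPM in wild type and 4.98 to 46.3 TPM in knockout, almost all of it Lyz2, with 1 of 6 markers higher in every knockout library. Ptprc, another of the 6, had 3, 4 and 7 counts in wild type and 2, 1 and 4 in knockout. Adgre1 had 8 counts in knockout replicate 3 and 0 in every other library. Which cells the Lyz2 RNA came from was not tested. Endothelial markers summed to at most 0.172 TPM in wild type and 0.644 to 3.66 TPM in knockout, with 3 of 3 higher in every knockout library. Fibroblast markers summed to 29.4 to 30.6 TPM in wild type and 60.1 to 66.8 TPM in knockout, nearly all from Pdgfra, the 1 of 4 that was higher in every knockout library, while Col1a1 fell (log2 fold change -1.40, edgeR adjusted p = 3.66e-05). Markers of cell types with an expanded ER were near absent: 4 plasma cell markers summed to at most 0.724 TPM and 4 pancreatic acinar markers to at most 0.831 TPM in any library, with Tnfrsf17, Prss2, Cpa1 and Amy2a1 at 0 counts in all 6. Over the 34 tested ER genes, knockout replicate 3 held 0.866 to 1.10 times the mean CPM (counts scaled to library size) of knockout replicates 1 and 2, with a median of 0.995. The part of RNA from other cells in the results was not tested, and in bulk RNA fewer cells of a type and less RNA per cell cannot be told apart.

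Most of the ER genes had more RNA in knockout cells. Of 34 that passed the filter on low counts, 28 rose, 3 fell and 3 were not called (edgeR quasi-likelihood test, adjusted p threshold 0.05 over all 13022 tested genes). Together that is 31 calls, where 82.3% of all tested genes were called in either direction. Over all tested genes 41.3% rose and 40.9% fell, with a median log2 fold change of -0.00, whereas the median over the 34 was 0.61. Counts by role below are to be read beside these shares. Past a 2-fold change there were 11 ER genes higher, against 12.4% of all tested genes, and 0 lower, against 15.6%. The 6 libraries of 31 ER genes separated by group with no overlap in CPM, which 83.1% of all tested genes also did. Small changes depended on the alternative. With upper-quartile factors, which shift the median of all tested genes by -0.13, the ER genes gave 26 higher, 5 lower and a median of 0.48, and all tested genes 4630 higher and 6189 lower in place of 5382 and 5329. With limma-trend on log2(TPM + 1), which changes both the scale and the test and shifts the median of all tested genes by -0.19, the ER genes gave 25 higher, 5 lower and a median of 0.38, and all tested genes 4125 higher and 6598 lower. Leaving out knockout replicate 3, the library with most lung RNA, left the counts at 28 and 3. Knockout replicates 1 and 2 hold lung RNA as well, so the part of that RNA in the counts was not tested.

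**Figure D1:**
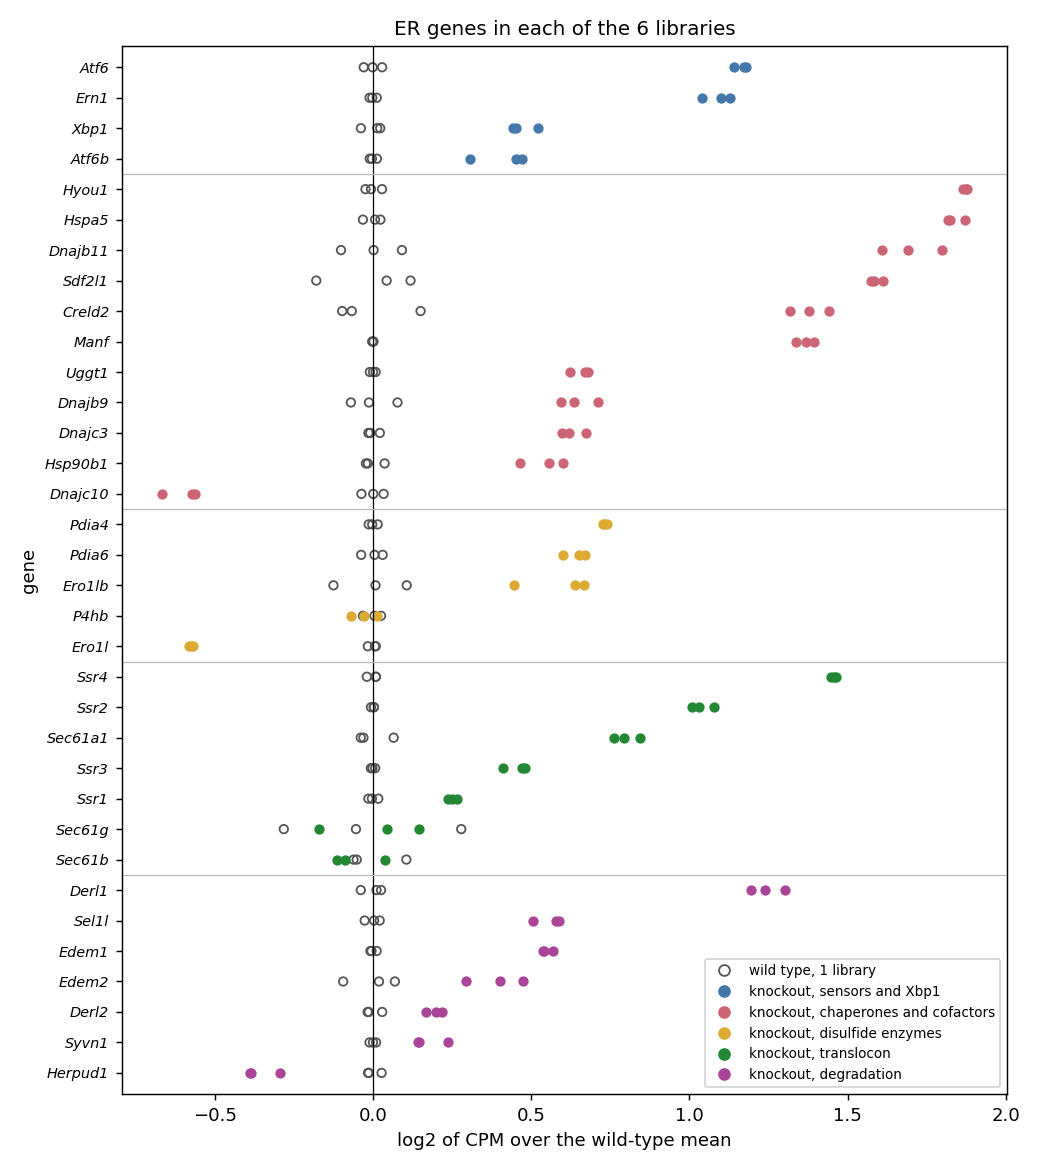
Each row is 1 of the 34 tested ER genes, and the x axis is the log2 of CPM in a library over the wild-type mean of that gene. Open circles are the 3 wild-type libraries and filled circles the 3 knockout libraries, coloured by role. Only P4hb, Sec61b and Sec61g overlap between groups, and Dnajc10, Ero1l and Herpud1 lie to the left.

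The sensors and Xbp1 all rose, 4 of 4, with a median log2 fold change of 0.78. Atf6, the sensor that is released by cleavage (ENSMUSG00000026663, chromosome 1, 170704674 to 170867771, GRCm38), stood at 116, 113 and 118 CPM in wild-type replicates 1 to 3 and at 261, 262 and 255 CPM in knockout replicates 1 to 3. Its log2 fold change was 1.16 ± 0.035 (SE), a 2.24-fold rise (edgeR adjusted p = 5.22e-21). The groups were far apart, and no knockout library fell near the highest wild-type value. Ern1, the gene of the kinase and nuclease IRE1 (ENSMUSG00000020715, chromosome 11, 106394650 to 106487852), was at 159, 162 and 160.0 CPM in wild type and 350.4, 343 and 329.6 CPM in knockout. That is a 2.13-fold rise (log2 fold change 1.09 ± 0.034, edgeR adjusted p = 1.41e-20). Their partners moved less: Xbp1, the message that IRE1 splices, was at 80.7, 81.2 and 77.8 CPM against 109, 109 and 115 CPM, 1.39-fold higher. Atf6b, a paralogue of Atf6, was at 119.8, 119 and 118 CPM against 163, 147 and 165 CPM, 1.33-fold higher.

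In levels per gene length, the ratio of Atf6b to Atf6 TPM was 3.44 ± 0.0815 in wild type and 2.04 ± 0.148 in knockout (SD, n = 3 each). A ratio within a library does not depend on scaling between libraries, so the paralogues changed unequally, with Atf6b still the higher of the pair in every library. An exact two-sided permutation test gave p = 0.1, the smallest that 3 against 3 libraries allow, for this ratio and for 6 others described below (Benjamini-Hochberg adjusted p = 0.1 over the 7, chosen after their values were seen). For none of the 7 did the groups overlap. No share over other pairs was computed, and 83.1% of all tested genes had no overlap in CPM either.

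Chaperones and their cofactors showed the highest median of the 5 roles, at a log2 fold change of 1.37, and differences between roles were not tested. Of 11, 10 rose and 1 fell. Hspa5, which encodes BiP, the major HSP70 chaperone of the ER (ENSMUSG00000026864, chromosome 2, 34771970 to 34777547), had 937, 974 and 962 CPM in wild type and 3377, 3498 and 3384 CPM in knockout. It rose 3.57-fold (log2 fold change 1.84 ± 0.031, edgeR adjusted p = 1.3e-26), more than 95.8% of tested genes. Hyou1, a large HSP70 relative that resets BiP by nucleotide exchange (ENSMUSG00000032115, chromosome 9, 44379490 to 44392369), had 107, 109.9 and 106 CPM against 393, 395 and 395 CPM. It rose 3.66-fold (log2 fold change 1.87 ± 0.034, adjusted p = 7.28e-26, edgeR), the highest fold of the 34.

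The J-domain cofactors, which hand clients to BiP and set its ATPase going, did not move as a block. Dnajb11, found in BiP complexes with nascent proteins, rose from 28.2, 30.3 and 32.3 CPM to 97.6, 105 and 92.4 CPM, a 3.25-fold change. Its binding partner Sdf2l1 rose 3.01-fold, from 8.48, 10.4 and 9.89 CPM to 28.8, 29.3 and 28.6 CPM. Dnajb9, which also holds IRE1 in check, and Dnajc3, also known as an inhibitor of the kinase PKR, rose 1.57-fold and 1.55-fold, from 14.3 ± 0.739 to 22.4 ± 0.93 CPM and from 65.5 ± 0.884 to 101 ± 2.8 CPM (SD, n = 3 each). Dnajc10, a J-protein with thioredoxin domains that cuts disulfides of proteins bound for degradation (ENSMUSG00000027006, chromosome 2, 80315466 to 80354043), went the other way. It stood at 139, 136 and 133 CPM in wild type and at 91.7, 92.2 and 85.9 CPM in knockout, a fall of 1.51-fold (log2 fold change -0.60 ± 0.041, edgeR adjusted p = 2.65e-13). Every knockout library lay below every wild-type library for this gene.

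Manf, a small ER-resident and secreted trophic factor, was at 73.3, 73.1 and 73.3 CPM in wild type and 189, 185 and 192 CPM in knockout, a 2.58-fold rise. Creld2, an ER stress-inducible factor with EGF-like repeats, was at 13.4, 13.7 and 16.0 CPM against 37.4, 35.8 and 39.0 CPM, a 2.6-fold rise. Both groups were tight for Manf, and Creld2 varied more at its lower level. Hsp90b1, the HSP90 chaperone GRP94, had 485, 506 and 487 CPM against 725, 748 and 681 CPM, 1.46-fold higher. Uggt1, which marks unfolded glycoproteins for another round of folding, rose 1.58-fold, from 333 ± 2.1 to 525 ± 10.7 CPM (SD, n = 3 each). The ratio of Hspa5 to Hsp90b1 TPM went from 1.85 ± 0.0256 to 4.55 ± 0.168, so these chaperones did not keep their proportion.

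The classical ER stress element (ERSE), bound by ATF6 and XBP1 together with the factor NF-Y, reads CCAAT, then 9 bases of any kind, then CCACG. A shorter form (ERSE-II) reads ATTGG, any base, then CCACG. Promoters were taken from RefSeq (GRCm38.p6) and searched on both strands in the 250 bases before the start for these and for the UPRE core TGACGTGG, and no match of one kind was counted for another. Of the 35 genes 29 had a promoter in that table, and those without were Atf6, Hyou1, Manf, Sec61a1, Ssr2 and Derl1. The ERSE was in the promoters of 8 of the 29, namely Hspa5, Hsp90b1, Dnajc3, Creld2, Pdia6, Ero1lb, Syvn1 and Derl3, against 0.113% of 32851 promoters of all genes. ERSE-II was in 1 of the 29, Herpud1, against 0.0304%, and the UPRE core was in 0 of the 29, against 0.563%. Of the 8 genes that had an ERSE or ERSE-II and passed the filter 7 rose and 1 fell, with a median log2 fold change of 0.61. Of the 20 tested genes with neither 15 rose, 2 fell and 3 were not called, with a median of 0.46. Over all tested genes 41.3% rose and 40.9% fell. Left out of both counts, Atf6, Hyou1, Manf, Sec61a1, Ssr2 and Derl1 all rose, with log2 fold changes from 0.80 (Sec61a1) to 1.87 (Hyou1). The difference between genes with and without an element was not tested. The elements are known from ER stress genes, the kind listed here. Their share in these promoters is therefore not independent evidence, and it was not tested. A match is a run of letters and not a shown binding site.

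These 4 stretches are from the genes with an ERSE and the largest change, printed 5′ to 3′ on the strand of the gene with the element in capitals. They show the element that the searched letters found in 4 genes whose rises ran from modest to large. Each ends before the start that RefSeq gives for the gene, and distances are counted from that start. For Hspa5 the RefSeq start lies downstream of the GENCODE gene start given above, so its stretch falls inside the GENCODE interval. In Creld2 the element lies on the other strand, so it begins with CGTGG.
Hspa5: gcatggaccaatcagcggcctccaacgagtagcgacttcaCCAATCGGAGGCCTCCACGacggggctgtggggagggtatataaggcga
Creld2: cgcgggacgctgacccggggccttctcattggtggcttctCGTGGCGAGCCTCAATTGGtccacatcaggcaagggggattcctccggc
Pdia6: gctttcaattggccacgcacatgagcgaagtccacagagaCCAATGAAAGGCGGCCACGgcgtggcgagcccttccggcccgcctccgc
Dnajc3: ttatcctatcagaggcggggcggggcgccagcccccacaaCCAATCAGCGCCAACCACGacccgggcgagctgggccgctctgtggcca
The stretches are chr2:34771985-34772073 (+ strand) for Hspa5, chr15:88819480-88819568 (+ strand) for Creld2, chr12:17266451-17266539 (+ strand) for Pdia6 and chr14:118937787-118937875 (+ strand) for Dnajc3. The elements begin 65, 126, 98 and 105 bases before the start, in that order. The log2 fold changes of the 4 genes were 1.84, 1.38, 0.64 and 0.63.

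Another 2 stretches were chosen after their values were seen, because the genes carry an element and had a small rise (Syvn1) or a fall (Herpud1). Syvn1 has an ERSE that begins 44 bases before the start, at chr19:6046492-6046575 (+ strand), and changed by a log2 of 0.18. Herpud1 has an ERSE-II that begins 52 bases before the start, at chr8:94386337-94386417 (+ strand), and fell by a log2 of 0.35.
Syvn1: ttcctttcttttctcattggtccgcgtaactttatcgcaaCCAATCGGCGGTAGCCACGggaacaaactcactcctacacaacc
Herpud1: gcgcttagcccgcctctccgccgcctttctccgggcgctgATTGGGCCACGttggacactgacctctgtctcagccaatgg

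Enzymes of disulfide chemistry were split. Of 5, 3 rose, 1 fell and 1 was not called. Pdia4 and Pdia6, isomerases that reshuffle disulfide bonds, rose 1.66-fold and 1.56-fold, from 147 ± 1.46 to 245 ± 1.24 CPM and from 215 ± 5.09 to 336 ± 8.32 CPM (SD, n = 3 each). P4hb, the founding protein disulfide isomerase and also a subunit of collagen prolyl hydroxylase, was at 714, 697 and 725 CPM in wild type and 698, 679 and 718 CPM in knockout. Its groups overlapped and it was not called (log2 fold change -0.03 ± 0.032, edgeR adjusted p = 0.411), but it was called lower with upper-quartile factors (-0.16, adjusted p = 4.35e-05) and on log2(TPM + 1) (-0.24, limma-trend adjusted p = 2.15e-05).

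The oxidases that recharge these isomerases moved in opposite directions. Ero1l, the widely expressed form and a known target of hypoxia-inducible factor (ENSMUSG00000021831, chromosome 14, 45283087 to 45318771), had 341, 342 and 336 CPM in wild type and 227, 228 and 229 CPM in knockout. It fell 1.49-fold (log2 fold change -0.58 ± 0.032, edgeR adjusted p = 3.56e-15). Ero1lb, the form best known from pancreas, was at 13.6, 14.5 and 12.4 CPM against 21.0, 21.4 and 18.4 CPM, a 1.5-fold rise. Neither gene overlapped between groups. The ratio of Ero1l to Ero1lb TPM went from 31.9 ± 2.28 to 14.2 ± 1.26 (SD, n = 3 each), so Ero1l remained the more abundant form in all 6 libraries.

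**Figure D2:**
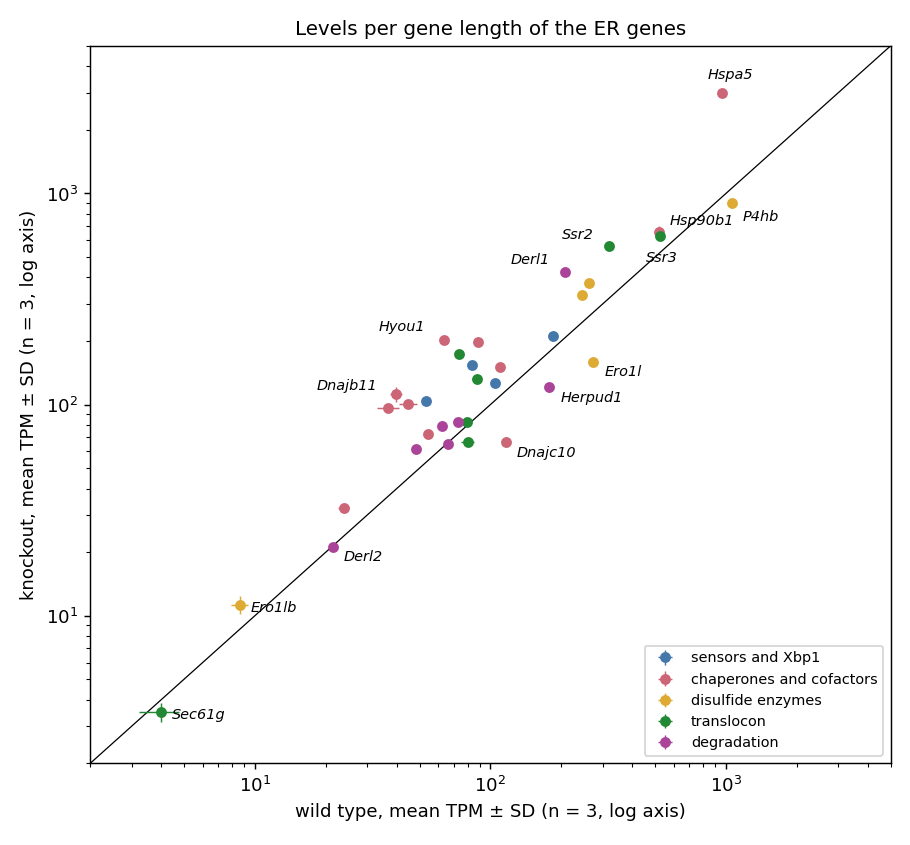
Mean TPM of the 34 tested ER genes in wild type (x axis) and knockout (y axis), both log axes, with SD over 3 libraries as bars, coloured by role. The line marks equal TPM, and a gene at the median of all tested genes lies below it, since TPM shifts that median by -0.19. Hspa5 stands at 965 and 2984 TPM and P4hb at 1059.8 and 899.9 TPM.

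Levels can be compared between genes on the TPM scale. P4hb was the most abundant of the 35 in wild type, at 1059.8 TPM, followed by Hspa5 at 965 TPM, and in knockout Hspa5 led at 2984 TPM with P4hb next at 899.9 TPM. Together the 35 genes summed to 6149 to 6191 TPM in wild type and 9339 to 9698 TPM in knockout. Hspa5 alone made up 15.4% to 15.9% of that sum in wild type and 30.9% to 31.8% in knockout. Without Hspa5 the sums were 5191 to 5207 TPM and 6445 to 6648 TPM, so the rise of the total was not carried by that gene alone. The order of the 35 genes by mean TPM was similar in both groups, with a Spearman correlation of 0.852 across genes, which are not independent replicates.

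Translocation genes rose in part. Of 7, 5 rose and 2 were not called, with a median log2 fold change of 0.46. Sec61a1, the channel subunit of the translocon, was at 145, 135 and 135 CPM in wild type and 239, 234 and 248 CPM in knockout, a 1.74-fold rise (log2 fold change 0.80 ± 0.038, edgeR adjusted p = 8.58e-17). Its small partners were not called. Sec61b was at 22.9, 23.1 and 25.7 CPM against 22.5, 22.1 and 24.5 CPM, and was called lower with upper-quartile factors (log2 fold change -0.19, edgeR adjusted p = 0.0164) and on log2(TPM + 1) (-0.26, limma-trend adjusted p = 9.99e-04). Sec61g had only 33 to 50 counts per library, 2.23, 1.91 and 2.81 CPM against 2.56, 2.06 and 2.39 CPM, and its standard error of 0.20 leaves room for moderate changes. The ratio of Sec61a1 to Sec61b TPM was 1.1 ± 0.102 in wild type and 1.97 ± 0.0559 in knockout (SD, n = 3 each).

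The translocon-associated protein complex, which sits beside the channel and helps weak signal sequences engage it, is encoded by Ssr1 to Ssr4. All 4 subunits rose, but by unlike amounts. Ssr4 (ENSMUSG00000002014, chromosome X, 73787028 to 73790830) was at 53.6, 52.5 and 53.6 CPM in wild type and 145, 147 and 146 CPM in knockout, a 2.74-fold rise (log2 fold change 1.46 ± 0.04, edgeR adjusted p = 8.13e-22). Ssr2 was at 139 ± 0.498 CPM against 286 ± 6.99 CPM, 2.05-fold higher, and Ssr3 at 516 ± 2.43 CPM against 707 ± 18.5 CPM, 1.37-fold higher (SD, n = 3 each). Ssr1 rose least, from 194, 198 and 195 CPM to 231, 235 and 233 CPM, 1.19-fold, and on log2(TPM + 1) it was not called (log2 fold change 0.04, limma-trend adjusted p = 0.267). The ratio of Ssr2 to Ssr1 TPM went from 3.98 ± 0.0573 to 6.86 ± 0.203. Products of all 4 genes belong to the same complex, and protein was not measured.

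Most degradation factors rose by less than 2-fold, and Derl1 by more. Of 7 tested, 6 rose and 1 fell, with a median log2 fold change of 0.39. Derl1, a membrane protein of the retrotranslocation channel (ENSMUSG00000022365, chromosome 15, 57869502 to 57892448), was at 164, 165 and 158 CPM in wild type and 383, 372 and 400.5 CPM in knockout, a 2.37-fold rise (log2 fold change 1.25 ± 0.036, edgeR adjusted p = 1.62e-21). Its paralogue Derl2 was at 40.5 ± 0.721 CPM against 46.3 ± 0.854 CPM, 1.14-fold higher by edgeR with no overlap in CPM. Derl2 lost its call under upper-quartile scaling (0.06, edgeR adjusted p = 0.26). On log2(TPM + 1) its sign turned (-0.01, limma-trend adjusted p = 0.833), and its TPM overlapped between groups. Derl3, the paralogue known from secretory tissues, had 1 to 3 counts in every library and was too low to be tested. The ratio of Derl1 to Derl2 TPM was 9.7 ± 0.392 in wild type and 20.1 ± 1.13 in knockout (SD, n = 3 each).

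Syvn1, the ubiquitin ligase HRD1, and its scaffold Sel1l form the core of the degradation complex. Sel1l rose 1.47-fold, from 126, 123 and 127 CPM to 188, 187 and 178 CPM. Syvn1 was at 75.5, 76.1 and 75.0 CPM against 83.4, 83.6 and 89.0 CPM, 1.13-fold higher (log2 fold change 0.18 ± 0.043, edgeR adjusted p = 5.54e-04), lost its call with upper-quartile factors (0.04, adjusted p = 0.357), and turned its sign on log2(TPM + 1) (-0.03, limma-trend adjusted p = 0.436). The ratio of Sel1l to Syvn1 TPM went from 0.942 ± 0.0223 to 1.23 ± 0.0815. Edem1 and Edem2, which trim mannose and so commit glycoproteins to degradation, rose 1.46-fold and 1.31-fold, from 73.5 ± 0.533 to 108 ± 1.33 CPM and from 59.5 ± 3.41 to 78.1 ± 4.91 CPM.

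Herpud1, a membrane adaptor of the degradation complex that is itself an ER stress-inducible gene (ENSMUSG00000031770, chromosome 8, 94386438 to 94395377), fell. It stood at 96.5, 96.6 and 99.4 CPM in wild type and at 79.5, 74.5 and 74.6 CPM in knockout. The fall was 1.28-fold (log2 fold change -0.35 ± 0.042, edgeR adjusted p = 2.06e-08), and every knockout library lay below every wild-type library. Its direction and its call held in all 17 alternatives.

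**Figure D3:**
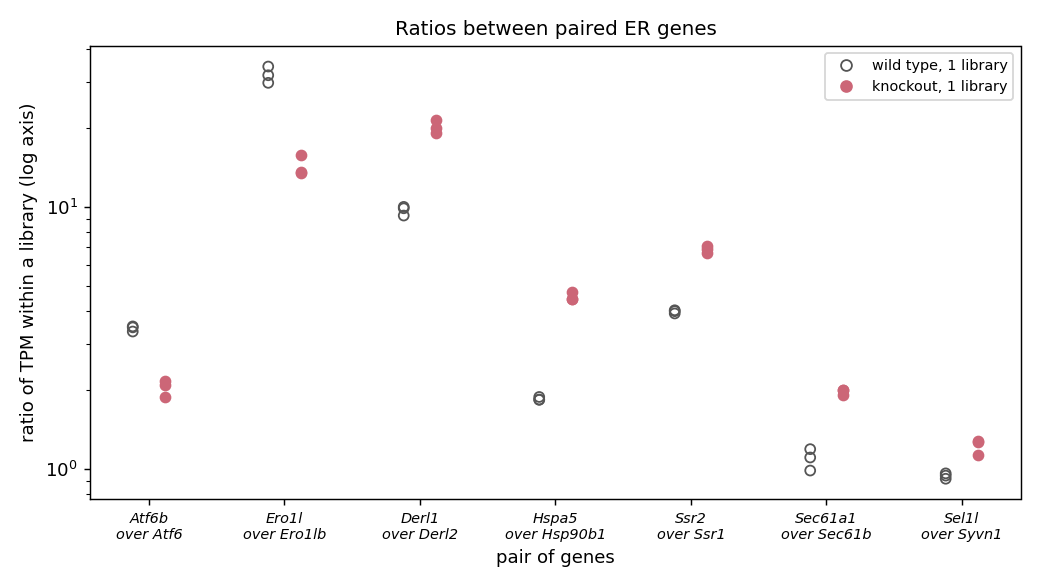
Ratios of TPM between 7 pairs of ER genes within each library, on a log axis, with open circles for the 3 wild-type and filled circles for the 3 knockout libraries. In no pair do the groups overlap, and the ratio of Derl1 to Derl2 goes from 9.25 to 9.99 in wild type to 19.1 to 21.3 in knockout.

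A further 94 ER genes were listed from general knowledge of the pathway, with earlier results of these data known. Of 90 tested, 63 rose, 16 fell and 11 were not called, with a median log2 fold change of 0.46, against the same 41.3% and 40.9% over all tested genes. Among 18 other chaperones and prolyl isomerases 11 rose and 3 fell: the isomerase gene Fkbp11 rose 3.74-fold, from 15.1 ± 1.5 to 56.4 ± 1.84 CPM. Fkbp14 was 3.43-fold higher in wild type, at 6.61 ± 0.166 CPM against 1.92 ± 0.81 CPM. In knockout replicates 1 to 3 Fkbp14 had only 44, 30 and 18 counts. Calr, the lectin chaperone calreticulin, named after its value was seen, rose 2.44-fold to 846 ± 17.6 CPM, and its membrane partner Canx 1.54-fold. Of 13 other disulfide enzymes 9 rose and 2 fell, and Pdia5 rose 5.75-fold, from 9.71 ± 0.75 to 55.9 ± 2.04 CPM, while Txndc11 rose 2.29-fold. Those values of Pdia5 exceed the fold of each of the 34 ER genes above.

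Genes that act on entering chains also rose for the most part. Of 18 genes of targeting, translocation and signal peptidase 15 rose and 1 fell, with a median log2 fold change of 0.64. Srpr, the receptor for the signal recognition particle, rose 2.5-fold, from 192 ± 4.85 to 480.1 ± 5.82 CPM, and Sec11c, a signal peptidase subunit, 2.64-fold. Among 12 genes of glycan addition, trimming and lectins 9 rose and 2 fell. The oligosaccharyltransferase genes Stt3a and Rpn1 rose 2.32-fold and 2.11-fold. Stt3b, which encodes the catalytic subunit of the other transferase complex and was named after its value was seen, was not called (log2 fold change -0.04 ± 0.032, edgeR adjusted p = 0.202).

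Of 24 other degradation factors 16 rose and 6 fell. Selenos, a selenoprotein that anchors the ATPase p97 at the ER, rose 3.5-fold, from 8.81 ± 0.439 to 30.9 ± 0.833 CPM, and Ubxn4, another anchor of p97, rose 2.6-fold. Among sensors, proteases and membrane-bound factors 3 rose and 2 fell of 5 tested, where 41.3% of all tested genes rose and 40.9% fell. Creb3, a membrane-bound transcription factor, rose 1.73-fold and Mbtps2, the site-2 protease that cleaves ATF6 in the Golgi, 1.54-fold, though 28.4% of the exon bases of Mbtps2 are shared with Yy2 and 15.2% of those of Creb3 with Tln1. Mbtps1, the site-1 protease that cuts ATF6 first, named after its value was seen, was 1.52-fold higher in wild type. Eif2ak3, the gene of the sensor PERK, named likewise, was 1.22-fold higher in knockout, where Atf6 rose 2.24-fold and Ern1 2.13-fold, differences between these genes not being tested.

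**Figure D4:**
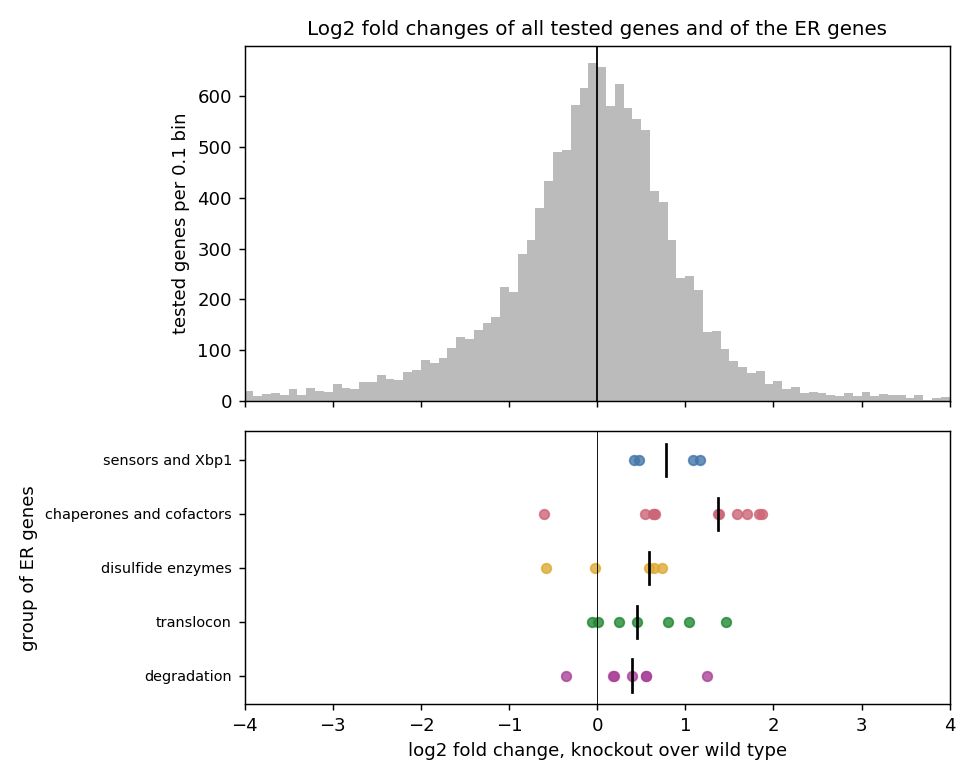
The upper panel counts all tested genes by log2 fold change (knockout over wild type) in bins of 0.1, with a line at their median, and 393 of 13022 genes lie outside the axis. The lower panel places each of the 34 tested ER genes by role, with a bar at the median of each role. All 5 medians lie to the right of 0, from 0.39 for degradation to 1.37 for chaperones.

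Some ER genes share exon positions with another gene on the opposite strand, over 12.8% of exon bases in Ssr2, 10.3% in Hsp90b1 and 8.16% in Sec61a1, and as no source used here gives the strand setting of the counting, their values are less certain.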

How the data were processed

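For each of 6 libraries the authors deposited raw gene counts, as whole numbers, together with TPM, and the 12 files of single libraries hold the same values as the tables of the whole series. Build GRCm38, featureCounts 2.0.1 and STAR 2.7.8a stand in the submitters' processing notes, and how TPM was made, the strand setting, the annotation release and the handling of multi-mapping reads are not given in the sources used. Symbols, positions and exon overlaps come from GENCODE M21 (GRCm38), which holds 55141 of the 55487 identifiers.

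Counts were filtered with filterByExpr, which left 13022 genes, scaled with TMM factors and compared with edgeR's quasi-likelihood F test (robust, two-sided), with Benjamini-Hochberg adjustment over all tested genes and a threshold of 0.05. Standard errors come from the fold change and its F statistic. CPM uses TMM-adjusted library sizes. Alternatives comprised other factors, filters, tests and a replicate block, limma on log2 TPM (pseudocounts 1 and 0.1), and leaving out each library. The test was tried on simulated counts. The 35 genes, their roles and all lists were chosen with earlier results of these data known (the TPM ratios, COPII, KDEL receptor and autophagy lists after their own values), so their directions are not independent evidence. Every one of the 35 is named. Of the other ER genes, the rule takes, per list, the 2 called genes with the largest change whose higher group averaged 5 CPM or more. Protein sequences were not used here. Software was edgeR 4.0.16, DESeq2 1.42.0 and limma 3.58.1 in R 4.3.3, and Python 3.11.15.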

Additional observations from a re-analysis of the deposited data

How the results depend on the processing

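Of 34 tested ER genes, 29 kept their side of the threshold under all 17 alternatives, and 556 of 578 single comparisons did. A called gene also had to keep its direction, and a gene called in neither fit counted as kept whatever its sign. The exceptions were Derl2, Syvn1, Ssr1, P4hb and Sec61b, all with small changes. RLE factors, DESeq2, limma-voom, no filter, a filter of 1 CPM in 3 libraries and leaving out any library changed no call of the 34. With upper-quartile factors 26 ER genes were higher and 5 lower, and the median log2 fold change was 0.48. On log2(TPM + 1) 25 were higher and 5 lower with a median of 0.38, on log2(TPM + 0.1) 5 with 0.40, and on log2(TPM + 1) without a filter 5 with 0.38. Derl2 turned to -0.0122, -0.0127 and -0.0122 and Syvn1 to -0.0319, -0.0324 and -0.0319 in those 3 fits. Leaving out a library gave 28 higher and 3 lower each time, medians of 0.59 to 0.66, and 62 to 63 higher and 16 to 17 lower among the other ER genes. Over all tested genes it gave 5262 to 5401 higher and 5242 to 5375 lower. Against a 1.2-fold change 25 ER genes were higher and 3 lower, beside 4204 higher and 4165 lower of all 13022 tested genes. Over all tested genes the fit on log2(TPM + 0.1) gave 4112 higher and 6570 lower. The fit on log2(TPM + 1) without a filter gave 4209 higher and 7180 lower of 27543. The other ER genes gave 56 higher and 21 lower with upper-quartile factors, 50 and 23 on log2(TPM + 1), and 50 and 12 against a 1.2-fold change.

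The titles number the libraries of each group, and same-numbered libraries deviated from their group means with correlations of -0.00742, 0.0416 and 0.0132. Libraries with unlike numbers gave -0.0382 to 0.0224. Such small values do not settle whether same-numbered libraries were prepared together. Not every library correlated best with its own number. With the replicate block 28 ER genes were higher and 3 lower, the median was 0.61, and no call of the 34 changed. Over all tested genes the block gave 5430 higher and 5368 lower.

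At this depth Derl3, with 1 to 3 counts per library, and Sec61g, with 33 to 50, allow no statement on small changes.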

Other observations

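Genes that carry cargo out of the ER, or turn over the ER itself, were listed after the other values had been seen. Their counts stand beside 41.3% higher and 40.9% lower over all tested genes, with 82.3% called in either direction. Of 12 genes of the COPII coat and its start site 8 rose, 2 fell and 2 were not called, with a median log2 fold change of 0.29 (edgeR quasi-likelihood test). Sec23b rose 2.27-fold, from 65.6 ± 1.04 to 149 ± 4.83 CPM (SD, n = 3 each), whereas its paralogue Sec23a was 1.2-fold higher in wild type, at 116 ± 5.66 against 96.3 ± 2.69 CPM. The outer coat genes Sec13 and Sec31a rose 2.06-fold and 1.8-fold.

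Of 3 receptors that return escaped chaperones by their KDEL tail 2 rose and 1 fell. Kdelr1 and Kdelr2 were 1.07-fold and 1.26-fold higher in knockout, and Kdelr3 was 1.19-fold higher in wild type. The CPM of Kdelr1 overlapped between groups, and on the TPM scale it was lower in knockout, at 270.4 ± 11.7 TPM in wild type and 251 ± 6.99 TPM in knockout. Of 5 tested receptors for autophagy of the ER 2 rose, 2 fell and 1 was not called, shares near those over all tested genes. Retreg1 rose 1.91-fold, from 81.2 ± 1.75 to 155 ± 3.21 CPM, and Atl3 was 1.3-fold higher in wild type.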
